A study of Brassica rapa with 18 samples.

Results

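The genes described here are those whose response to methyl jasmonate (MeJA) differed between 24 h and 72 h after spraying in leaves of Brassica rapa seedlings, set beside those whose response was held. MeJA is a volatile form of jasmonic acid, the hormone with which plants answer wounds and attack. A response is the fold change of MeJA over the mock spray of the same time, and the change of response is the log2 response at 72 h minus that at 24 h. Of 42186 features counted, 26356 were abundant enough to be tested, and the change of response passed the test for 476 of them, 1.81%. The test used 12 of the 18 libraries of the study, 3 for each of MeJA 24 h, mock 24 h, MeJA 72 h and mock 72 h.

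All plants were of the wild-type inbred line R-o-18 of the variety trilocularis and were 10 days old when sprayed. The MeJA groups received 10 mL of 50 µM MeJA, the mock groups the same spray without it, and both sprays held 0.1% Tween-20. Messenger RNA of leaves was sequenced in stranded, paired-end libraries whose replicates are called biological in the labels; how many seedlings went into a library is not stated in the sources used here. In whole leaves, fewer cells of a type and less RNA per cell cannot be told apart. The labels' batch field coincides with the harvest time, so each response lies within a batch, while the time and the batch cannot be told apart in a change of response.

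In plants, MeJA is converted to jasmonic acid and then to its isoleucine conjugate, which joins the receptor COI1 to JAZ repressor proteins and leads to their breakdown. This frees MYC transcription factors, which switch on defence genes and also the genes for new JAZ proteins and for enzymes that break the hormone down, so that the pathway carries its own brakes. In Brassicaceae leaves it is known for raising glucosinolate and anthocyanin synthesis and for lowering genes of growth and photosynthesis. The count table does not pair its identifiers with gene names, and only 1 of them was found in the RefSeq gene table of another assembly. Genes are therefore given by identifier, with no name or role.

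Totals of the 12 libraries ran from 14358443 to 17796115 counts, so that 3 counts stand for 0.209 CPM (counts scaled to library size) in the smallest and 0.169 CPM in the largest. Replicate libraries of these times differed by 5.70 to 26.9 in chi-square per degree of freedom over 12 pairs, so none agreed within sampling noise. Features with ENSRNA identifiers took 0.997% to 2.38% of the counts in the 24 h libraries, 1.69% to 4.03% in MeJA 72 h and 4.42% to 5.80% in mock 72 h. With these features left out, 481 genes passed the test of the change.

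The response faded far more often than it grew. Among the 476 genes, 308 had risen with MeJA at 24 h and had a smaller rise, or none, at 72 h (fading rises), and 135 had fallen at 24 h and came back towards mock (fading falls). Only 31 were higher with MeJA at 72 h after a lower response at 24 h (growing rises), and 14 were lower at 72 h after a higher response at 24 h (growing falls). The response passed the test on both sides of mock for 12 genes, which count both as fading and as growing. Each of the 476 thus had a called response at 24 h or 72 h (p under 0.05 after Benjamini-Hochberg adjustment over all 26356 features, quasi-likelihood test of edgeR, as for every call at 24 h and 72 h).

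By sign, the change was more negative for 318 genes, 1.21% of those tested, and more positive for 158, 0.599%. This order depends on the scaling: with library totals in place of the trimmed mean of M-values (TMM), 213 were more negative and 301 more positive, and the median change over all features moved from 0.01 to 0.15 on the log2 scale. It also turned without MeJA 24 h replicate 1, to 519 and 536. The 476 genes became 1055 without MeJA 24 h replicate 1, 897 without its replicate 2 and 207 without its replicate 3. They became 273 and 271 without MeJA 72 h replicate 1 or 2, 240 without mock 24 h replicate 1, and 254 and 255 without mock 72 h replicate 2 or 3. Of the more positive changes, 40 (without MeJA 24 h replicate 3) to 536 were called, and the count stayed within 1.5 times of 158 only without mock 24 h replicate 3.

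**Figure D1:**
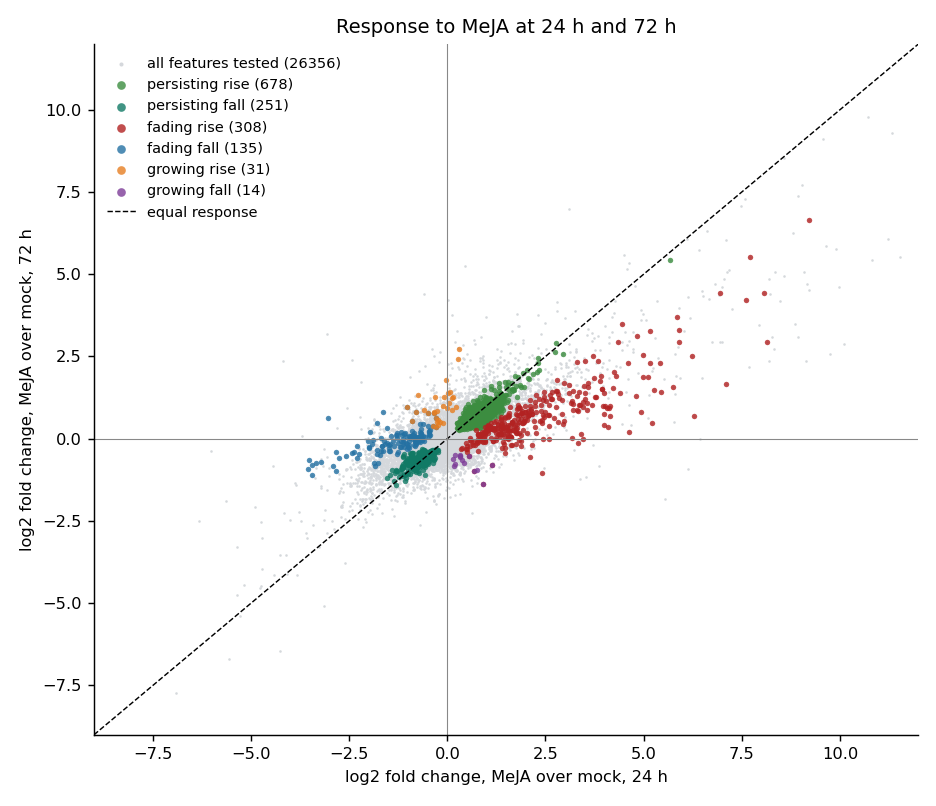
Log2 fold change of MeJA over mock at 24 h (horizontal axis) and at 72 h (vertical axis) for the 26356 features tested; each point is 1 feature, colours mark the classes, and the dashed line marks an equal response. Fading rises (308) lie below the line on the right, fading falls (135) above it on the left, and persisting genes (678 and 251) along it.

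The fading rises were large at 24 h and small at 72 h. Their median log2 response was 1.88 at 24 h and 0.51 at 72 h, against -0.03 and -0.02 over all features tested. The change was at least 2-fold in 223 of them and at least 4-fold in 79. At 24 h, 3597 genes rose with MeJA, 13.6% of those tested, and these 308 are the part of them whose decline passed the test. Since the class is defined by these contrasts, its medians describe it and test nothing.

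A rise that faded had not always ended. At 72 h, 138 of the 308 were still called higher than mock, 166 were not called and 4 were called lower, where 6.03% of all features were called higher and 2.27% lower. The 138 had started from a larger median rise, 2.65 on the log2 scale at 24 h, and stood at 1.11 at 72 h. Those no longer called had a median of 1.51 at 24 h that was 0.18 at 72 h, and 122 of these 166 were above 0. A missed threshold does not show that their response had returned to mock. The class uses the 72 h libraries and the split uses the call at 72 h, which favours larger rises among the 138. Nothing is therefore read from these shares and medians.

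In every MeJA library of 24 h, the fading rises held several times more of the counts than in any mock library. They took 5.06%, 4.12% and 5.51% of the counts in the MeJA libraries of 24 h and 0.915%, 0.979% and 0.987% in their mock libraries. At 72 h they took 1.39%, 1.41% and 1.30% with MeJA and 0.835%, 0.880% and 0.889% with mock. The groups did not overlap at either time. At 24 h this follows from the choice of genes called higher in these same libraries. The class numbered 164 without MeJA 24 h replicate 3, 166 without mock 24 h replicate 1, 188 without mock 72 h replicate 3, 191 without MeJA 72 h replicate 1 and 199 without either MeJA 72 h replicate 2 or mock 72 h replicate 2. It numbered 494 and 610 without MeJA 24 h replicate 1 or 2.

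**Figure D2:**
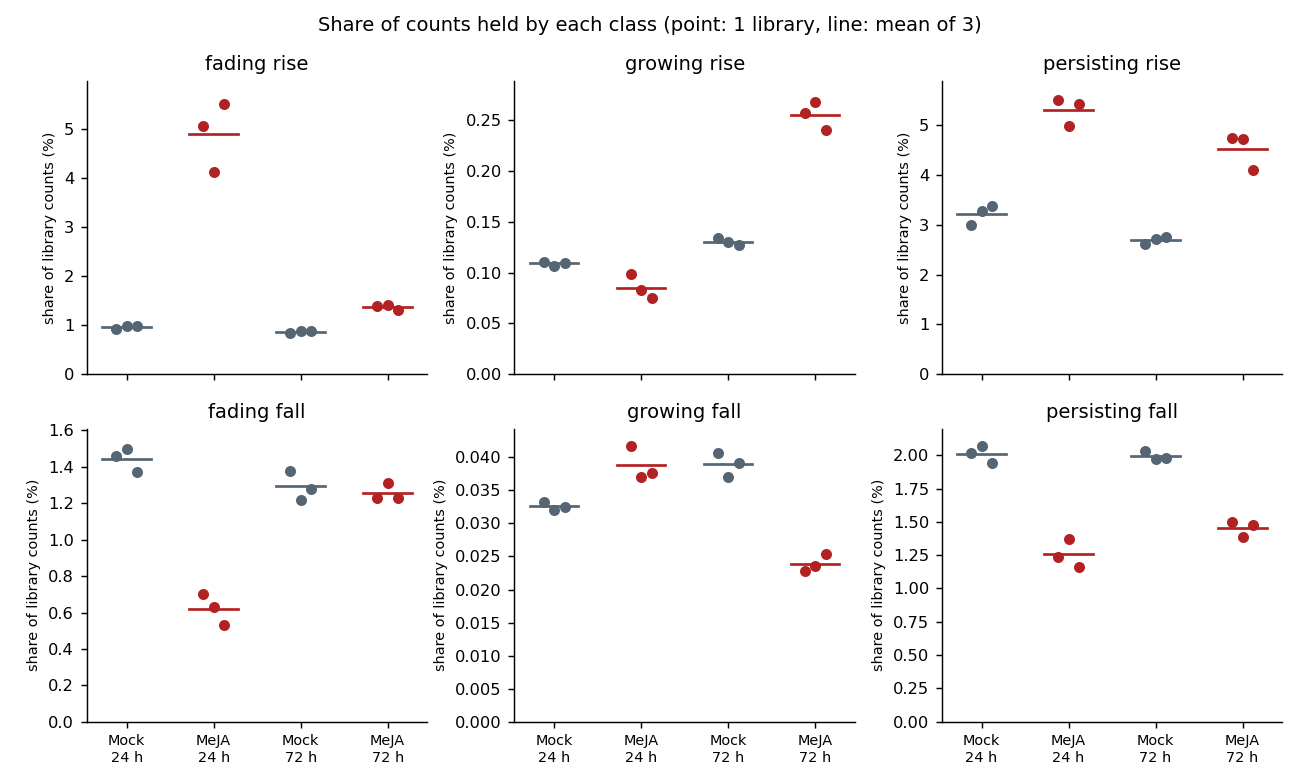
Share of each library's counts held by the genes of each class (vertical axis, percent, from 0), for mock and MeJA libraries of 24 h and 72 h; each point is 1 library and each line the mean of 3. The fading rises take 4.12% to 5.51% in MeJA 24 h and 1.30% to 1.41% in MeJA 72 h. The persisting rises stay above their mock libraries at both times, as their class rule asks.

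Bra004057 showed the largest change among fading rises that met the naming rule, which asked for measurable counts in all 4 groups and no overlap between MeJA and mock at 24 h. It stood at 153, 218 and 335 CPM with MeJA and at 2.22, 1.05 and 1.83 CPM with mock at 24 h. By 72 h it stood at 2.56, 3.79 and 2.40 CPM with MeJA and at 0.980, 0.830 and 0.962 CPM with mock. All MeJA values exceeded all mock values at both times, but the distance between them had shrunk at 72 h. Its log2 response was 7.10 (SE 0.326) at 24 h and 1.65 (SE 0.419) at 72 h, a change of -5.45 (SE 0.622; edgeR adjusted p = 0.000755).

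Bra016002 followed the same course from a still lower mock level. The 24 h values were 107, 130 and 116 CPM with MeJA and 0.370, 0.458 and 0.393 CPM with mock. Its values at 72 h were 2.45, 2.18 and 1.99 CPM with MeJA and 0.288, 0.356 and 0.192 CPM with mock. The groups were apart at both times, and the mock levels rest on only 19 and 14 counts in all. Its log2 response went from 8.15 (SE 0.161) to 2.94 (SE 0.235), a change of -5.21 (SE 0.440; edgeR adjusted p = 0.000145). The change of both genes passed the test in all 23 alternatives.

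The typical fading fall stood near its mock level at 72 h. The median log2 response was -1.04 at 24 h and -0.03 at 72 h, and 63 of the 135 were above 0 at 72 h. The test still called 7 lower at 72 h, 120 were not called, and 8 were called higher, where 2.27% of all features were lower and 6.03% higher. At 24 h, 3294 genes, 12.5% of those tested, fell with MeJA. The class took 0.702%, 0.631% and 0.529% of the counts in MeJA 24 h and 1.46%, 1.5% and 1.37% in mock 24 h. These ranges lie far apart, which follows from the choice of genes called lower in these same libraries. At 72 h the shares were 1.23%, 1.31% and 1.23% with MeJA and 1.38%, 1.22% and 1.28% with mock, which overlap. A called change is part of the class rule and favours a return towards mock, so nothing is read from the 72 h values. All 3294 falls, chosen by 24 h alone, had a median log2 response of -0.71 at 24 h and -0.29 at 72 h.

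The size of this class rests on single libraries more than that of the fading rises. It numbered 479 without MeJA 24 h replicate 1, 246 without its replicate 2 and 28 without its replicate 3. Without MeJA 72 h replicate 1, 2 or 3 it numbered 66, 58 and 63, without mock 24 h replicate 1 or 2 it numbered 56 and 73, and without mock 72 h replicate 1, 2 or 3 it numbered 79, 37 and 44. With library totals in place of TMM it numbered 264, against 210 fading rises.

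Bra001626 had the largest change among fading falls under the naming rule. Its values at 24 h were 44.8, 10.4 and 9.11 CPM with MeJA and 257, 268 and 211 CPM with mock. At 72 h it stood at 113, 155 and 128 CPM with MeJA and at 272, 160 and 186 CPM with mock. The MeJA libraries of 24 h lay far below mock, replicate 1 less so, and at 72 h all 3 lay below the lowest mock value, replicate 2 only just. Its log2 response was -3.52 (SE 0.472) at 24 h and -0.64 (SE 0.421; edgeR adjusted p = 0.38) at 72 h, a change of 2.88 (SE 0.615; edgeR adjusted p = 0.0308).

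Bra006567 also moved back towards its mock level. At 24 h it stood at 14.9, 4.69 and 10.0 CPM with MeJA and at 129, 135 and 60.7 CPM with mock. By 72 h it stood at 41.1, 20.3 and 61.1 CPM with MeJA and at 92.5, 66.0 and 52.8 CPM with mock, so the groups overlapped. Its log2 response was -3.455 (SE 0.457) at 24 h and -0.788 (SE 0.405, edgeR adjusted p = 0.251) at 72 h. The change was 2.67 (SE 0.597, edgeR adjusted p = 0.0396). This call and that of Bra001626 were each lost in 8 of 23 alternatives. Both were lost without MeJA 24 h replicate 3, MeJA 72 h replicate 1 or 3, replicate 1 or 2 of mock 24 h, or replicate 2 or 3 of mock 72 h. That of Bra001626 was also lost without MeJA 72 h replicate 2 and that of Bra006567 with a replicate block within each time. For Bra001626 the change ranged from 2.49 to 4.02, the latter without MeJA 24 h replicate 1, and its edgeR, DESeq2 or limma adjusted p from 2.93e-05 to 0.0987. For Bra006567 the change ranged from 2.23 to 3.07 and the adjusted p from 0.0115 to 0.12.

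**Figure D3:**
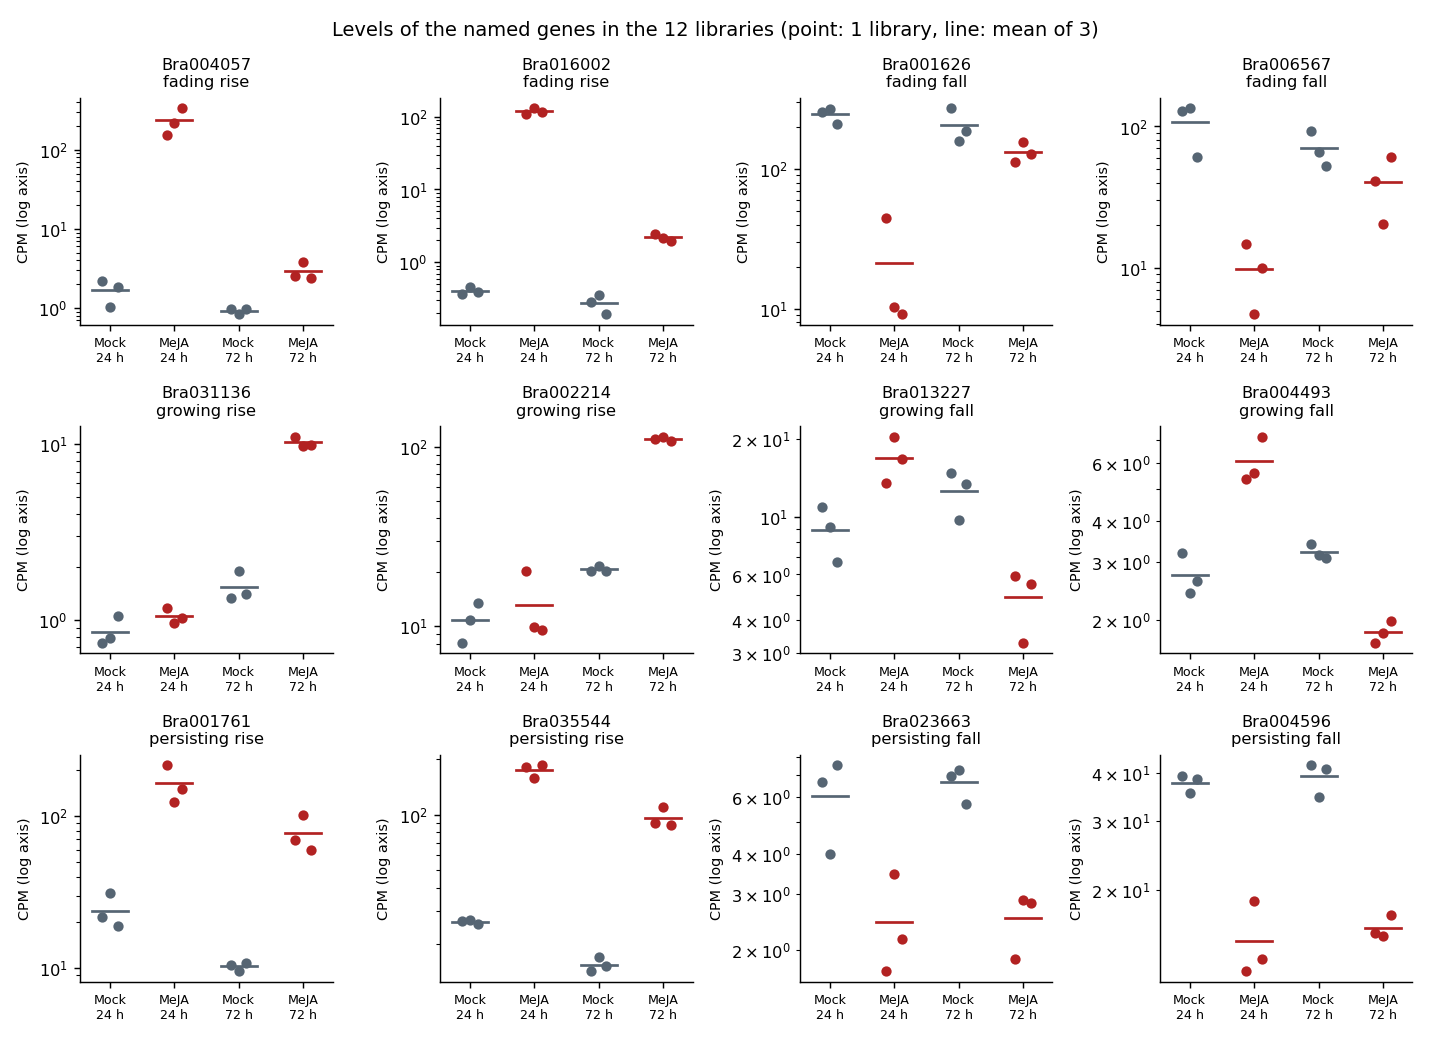
CPM (log axis) of the 12 genes named for the 6 classes in mock (grey) and MeJA (red) libraries of 24 h and 72 h; each point is 1 library and each line the mean of 3. The MeJA values of Bra004057 and Bra016002 fall towards mock at 72 h, and those of Bra001626 and Bra006567 climb back towards it. Those of the persisting genes stay apart from mock at both times, as the naming rule asks.

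A response was counted as persisting only where it was called the same way at both times, the change was not called, and the approximate 95% interval of the change lay within 1 on the log2 scale on either side of 0. This held for 678 rises and 251 falls. The median log2 response of the persisting rises was 0.74 at 24 h and 0.67 at 72 h, and that of the persisting falls -0.66 and -0.59. The persisting rises were smaller at 24 h than the fading ones, which the class rules favour, since a called decline needs room. With an interval within 1.5-fold, 320 rises and 126 falls remained in these classes. The interval misses 381 further rises and 134 falls that were called at both times, so whether these were held or faded could not be decided.

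The undecided rises were larger and less abundant than the persisting ones, as the interval rule favours, since fewer counts give a wider interval. Their medians were 2.04 at 24 h and 1.52 at 72 h, and their median mock level at 72 h was 3.26 CPM, against 18.5 CPM for the persisting rises. The persisting rises numbered 337 and 308 without MeJA 72 h replicate 1 or 2, and 319, 308 and 449 without mock 72 h replicate 1, 2 or 3. The persisting falls numbered 159 without MeJA 24 h replicate 3, 62 and 57 without MeJA 72 h replicate 1 or 2, and 75 and 83 without mock 72 h replicate 1 or 2.

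Bra001761 held its response while its level fell in both treatments. The 24 h values were 215, 124 and 151 CPM with MeJA and 21.8, 31.1 and 18.9 CPM with mock. Its values at 72 h were 69.8, 101.9 and 60.1 CPM with MeJA and 10.5, 9.55 and 10.9 CPM with mock. MeJA was above mock in every library, as the naming rule asks of persisting rises, and each treatment was lower at 72 h than at 24 h. The log2 response was 2.77 (SE 0.242) at 24 h and 2.90 (SE 0.252) at 72 h, and the 95% interval of the change ran from -0.58 to 0.85.

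Bra035544 did the same with a smaller spread. Its values at 24 h were 182, 158 and 185 CPM with MeJA and 26.4, 26.7 and 25.6 CPM with mock. At 72 h it stood at 90.1, 109.7 and 88.1 CPM with MeJA and at 14.1, 16.8 and 15.1 CPM with mock. Its log2 response was 2.74 (SE 0.113) and 2.64 (SE 0.115), and the interval of the change ran from -0.43 to 0.24. From 24 h to 72 h the level itself moved by -0.87 on the log2 scale with MeJA and by -0.77 with mock (edgeR adjusted p = 9.33e-05 and 0.00338).

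Among the persisting falls, Bra004596 had similar levels at both times. At 24 h it stood at 12.3, 18.7 and 13.2 CPM with MeJA and at 39.3, 35.4 and 38.4 CPM with mock. By 72 h it stood at 15.4, 15.2 and 17.2 CPM with MeJA and at 41.8, 34.7 and 40.8 CPM with mock. MeJA lay below mock in every library of both times, as the naming rule asks of persisting falls. The log2 response was -1.36 (SE 0.140) and -1.29 (SE 0.138), and the interval of the change ran from -0.36 to 0.48.

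Bra023663 was lower in abundance, and its interval only just met the rule. The 24 h values were 1.72, 3.45 and 2.17 CPM with MeJA and 6.66, 3.99 and 7.53 CPM with mock. Its values at 72 h were 1.88, 2.87 and 2.81 CPM with MeJA and 6.97, 7.29 and 5.71 CPM with mock. The groups did not overlap at either time, again as the naming rule asks. The log2 response was -1.31 (SE 0.283) and -1.40 (SE 0.276), and the interval of the change ran from -0.95 to 0.76.

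The growing responses were either not called at 24 h, which does not show that they were absent, or called on the other side of mock. Of the 31 growing rises, 23 were not called at 24 h and 8 were called lower then, where 12.5% of all features were. Of the 14 growing falls, 10 were not called at 24 h and 4 were called higher, where 13.6% of all features were. The rule used these contrasts, so nothing is read from these shares. No rise or fall called at 24 h was called larger at 72 h by edgeR's test (0 genes in each direction, 12 rises and 4 falls at an unadjusted p under 0.05). DESeq2 called 3 such rises and limma-voom 3 such rises and 1 such fall. A response called at both times with a called change had shrunk in all 145 cases by edgeR, 138 rises and 7 falls.

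The median log2 response of the growing rises moved from -0.23 to 0.89 between 24 h and 72 h, that of the growing falls from 0.36 to -0.69. Of the falls, 2 were ENSRNA features, which are not named here. Counts as small as these moved widely when a library was left out. The rises numbered 88 and 16 without MeJA 24 h replicate 1 or 3, 19 and 16 without MeJA 72 h replicate 1 or 2, 19 without mock 24 h replicate 1, and 15 and 19 without mock 72 h replicate 2 or 3. The falls numbered 28, 23 and 5 without MeJA 24 h replicate 1, 2 or 3, 4 and 2 without MeJA 72 h replicate 1 or 2, 4, 4 and 9 without mock 24 h replicate 1, 2 or 3, and 5 and 8 without mock 72 h replicate 1 or 2. With library totals in place of TMM they numbered 50 and 5.

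Bra031136 was near its mock level at 24 h and well above it at 72 h. Its values at 24 h were 1.17, 0.966 and 1.03 CPM with MeJA and 0.740, 0.785 and 1.05 CPM with mock, which overlap. At 72 h it stood at 11.1, 9.81 and 9.96 CPM with MeJA and at 1.33, 1.90 and 1.41 CPM with mock, which do not. The naming rule asks for no overlap at 72 h in growing genes. The log2 response was 0.30 (SE 0.246; edgeR adjusted p = 0.497) at 24 h and 2.73 (SE 0.186) at 72 h, a change of 2.43 (SE 0.313; edgeR adjusted p = 0.00192).

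Bra002214 followed the same course at a higher level. At 24 h it stood at 20.2, 9.87 and 9.48 CPM with MeJA and at 8.07, 10.9 and 13.6 CPM with mock, with overlap. By 72 h it stood at 110.9, 113.6 and 107.3 CPM with MeJA and at 20.3, 21.6 and 20.3 CPM with mock, with none. Its mock level at 72 h differed from that at 24 h by 0.94 on the log2 scale, which missed the threshold (edgeR adjusted p = 0.0609). The change was 2.13 (SE 0.334; edgeR adjusted p = 0.00542), and that of both genes passed the test in all 23 alternatives.

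Both growing falls that the naming rule gave were also called higher than mock at 24 h, so their response crossed over. Bra013227 stood at 13.6, 20.4 and 16.8 CPM with MeJA and at 10.9, 9.15 and 6.68 CPM with mock at 24 h. Its values at 72 h were 5.92, 3.27 and 5.51 CPM with MeJA and 14.8, 9.73 and 13.3 CPM with mock. MeJA was above mock in all libraries of 24 h and below it in all of 72 h, the latter as the naming rule asks. The log2 response was 0.92 (SE 0.234) and then -1.36 (SE 0.246), a change of -2.28 (SE 0.340; edgeR adjusted p = 0.00419), which was lost with all 18 libraries in the fit (edgeR adjusted p = 0.0618; 5.52e-08 to 0.0618 over the alternatives).

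Bra004493 crossed over at lower levels. The 24 h values were 5.36, 5.59 and 7.18 CPM with MeJA and 3.21, 2.42 and 2.62 CPM with mock. At 72 h it stood at 1.71, 1.84 and 1.99 CPM with MeJA and at 3.40, 3.14 and 3.08 CPM with mock. The groups were apart at both times, in opposite order. The log2 response was 1.14 (SE 0.179) and then -0.80 (SE 0.191), a change of -1.93 (SE 0.262; edgeR adjusted p = 0.00259).

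A change of response can come from the MeJA libraries, from the mock libraries or from both, and the 2 parts can be read apart, although each compares times and so batches. For fading rises, the median level in MeJA libraries moved by -1.42 on the log2 scale from 24 h to 72 h and that in mock libraries by -0.06. For fading falls, the medians were 1.02 with MeJA and -0.11 with mock. In both fading classes the median difference between times was thus larger in the MeJA libraries than in the mock libraries. The class rules use these same libraries and favour this, so the medians describe the classes and test nothing. For growing rises the medians were 1.49 with MeJA and 0.40 with mock, and for growing falls -0.79 and 0.17. Over all features tested the medians were 0.00 and -0.02.

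**Figure D4:**
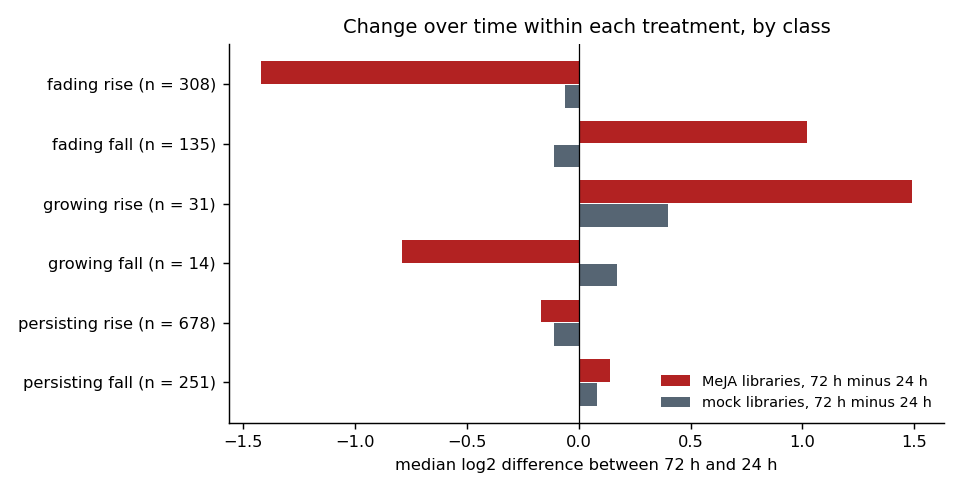
Median log2 difference between 72 h and 24 h (horizontal axis) within MeJA libraries (red) and within mock libraries (grey) for the genes of each class. In fading rises the bars stand at -1.42 and -0.06, and in growing rises at 1.49 and 0.40. In both persisting classes they lie close to each other, as the interval rule asks.

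Genes can also be chosen by the contrast of 24 h alone, which does not compare levels at 72 h. The 72 h libraries still have a part in the filter, the scaling and the estimate of spread. Of the 3597 rises at 24 h, 1197 (33.3%) were called higher again at 72 h, where 6.03% of all features were. Of the 3294 falls, 392 (11.9%) were called lower again, where 2.27% were. The 2 times share no library, though they share 1 fit, and abundant genes are called more often at each time. Most of the rest cannot be placed: 2230 rises and 2774 falls were called at 24 h alone with no called change, and their median log2 response at 72 h was 0.25 and -0.26. The count of all responses at 24 h, 6891, was 4211 without MeJA 24 h replicate 3, and that at 72 h, 2186, was 927 and 861 without MeJA 72 h replicate 1 or 2 and 1012 and 901 without mock 72 h replicate 1 or 2.

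The response at 72 h went with the size of the response at 24 h. Among the 900 rises that were smallest at 24 h (log2 0.23 to 0.52), the median was 0.40 at 24 h and 0.18 at 72 h, and 18.7% were called higher again. Among the 899 largest (1.45 to 11.53), the median was 2.18 at 24 h and 1.22 at 72 h, and 51.7% were called higher again. The 824 smallest falls had a median of -0.40 and then -0.15, with 7.16% called lower again, and the 824 largest -1.61 and then -0.75, with 18.6%. Values at 24 h are inflated by the choice, so part of each drop follows from choosing genes by their size at that time. Of the 308 fading rises, 211 were among the 899 largest and 7 among the 900 smallest. The response at 24 h is part of the change, and a small rise leaves little room for a called decline. Nothing is therefore read from this spread.

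**Figure D5:**
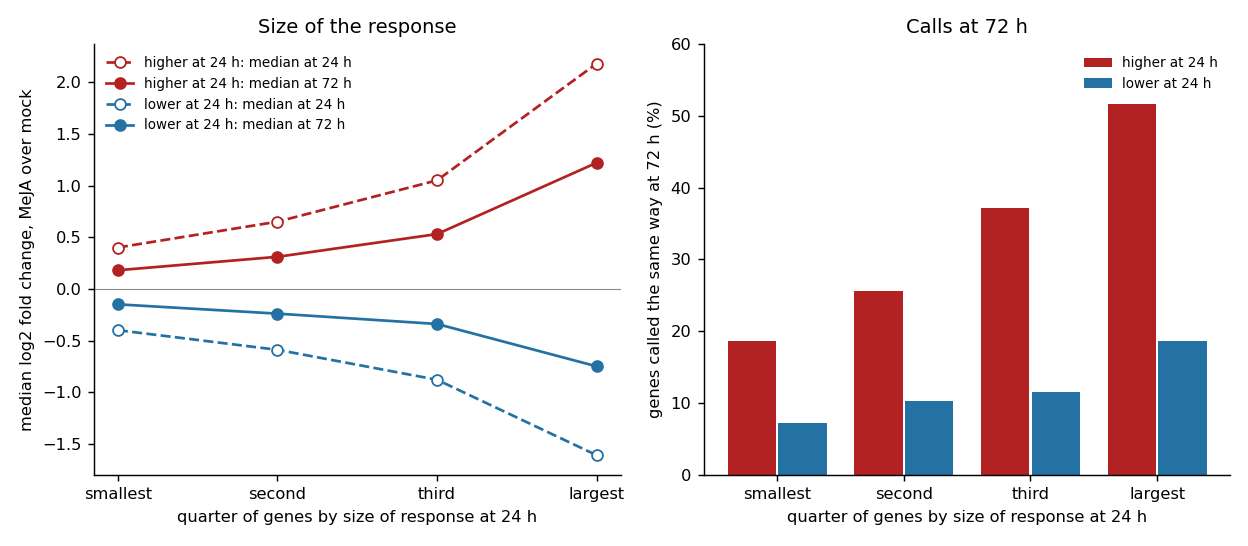
Left, median log2 fold change of MeJA over mock at 24 h (open points) and 72 h (filled points) for genes called at 24 h, in 4 equal groups by the size of their response at 24 h. Right, percent of these genes called the same way at 72 h, from 0, which runs from 18.7% to 51.7% for rises (red) and from 7.16% to 18.6% for falls (blue).

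For genes almost silent in mock leaves the change of response has no usable ratio, and the level with MeJA was compared instead. There were 76 genes called higher at 24 h or 72 h with at most 3 counts over the 3 mock libraries of one of these times. All but 1 of them were called at 24 h and 20 at 72 h, 19 at both. Their change of response was called in 1 gene, whereas their level in MeJA libraries was called lower at 72 h than at 24 h in 63, where 8.37% of all features were. Since 75 of the 76 were chosen as higher at 24 h and have almost no counts in mock, the choice favours a lower level at 72 h, and nothing is read from this share. The median level was 2.41 CPM in MeJA 24 h and 0.334 CPM in MeJA 72 h. With a mean of at least 1 CPM required, 31 of 32 such genes were called lower, and with no filter on low counts 93 of 169. The group numbered 116 without mock 24 h replicate 2 and 119, 118 and 131 without mock 72 h replicate 1, 2 or 3, where the same limit of 3 counts is spread over fewer libraries.

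The pair of these genes most abundant in MeJA 24 h was much less abundant in MeJA 72 h. It was chosen by its level in MeJA 24 h, which favours a fall, so nothing is read from the p-values of its fall. Bra000129 had 15956, 9037 and 19064 counts in the MeJA libraries of 24 h and 335, 388 and 190 in those of 72 h, and its level fell by 5.77 on the log2 scale (SE 0.325; edgeR adjusted p = 1.83e-07). Bra016073 had 7177, 10489 and 14661 counts and then 537, 388 and 361, and fell by 4.83 (SE 0.222; edgeR adjusted p = 3.43e-08). In the mock libraries of 24 h they had 1, 11 and 5 counts and 6, 8 and 5 counts, and in those of 72 h each had 1, 0 and 0. Both were above mock in every library of both times. On so few counts the mock levels differed by -3.74 and -3.90 on the log2 scale between the times, which missed the threshold (edgeR adjusted p = 0.2 and 0.0787), and so did the change of response (edgeR adjusted p = 0.869 and 0.946).

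The 6 libraries of 10 min had no part in choosing the classes and give a separate reading of the same genes. Most fading rises already stood above mock at 10 min, with a median log2 response of 0.55 over the 298 tested there and 277 of them above 0. Fading falls had a median of -0.44 over 134 genes, and only 4 were above 0. The persisting rises and falls had medians of 0.43 and -0.27, while all features tested at 10 min had a median of 0.00. The undecided rises stood higher than the fading ones, with a median of 1.15 and 326 of 339 above 0. Without MeJA 10 min replicate 2 their median was 0.83. Undecided falls had a median of -0.39, with 12 of 131 above 0. Growing rises stood slightly below mock, with a median of -0.32 and 6 of 30 above 0, and growing falls near it at 0.16.

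Calls at 10 min went the same way but rest on single libraries, and the replicates of that time stand apart or agree closely. MeJA replicate 2 differed from replicates 1 and 3 by 25.0 and 24.5 in chi-square per degree of freedom, against 6.25 between those. Mock replicates 2 and 3 differed by only 1.49, above sampling noise but below every other pair of the study, the next being 4.90. The tests treat them as separate samples, which was not tested.

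In a fit of these 6 libraries, 51 fading rises (17.1%) and 196 persisting rises (29.0%) were called higher, where 3.64% of all features were. Of the fading falls, 28 (20.9%) were called lower, and of the persisting falls 30 of 251, where 1.67% were. Without MeJA 10 min replicate 2 the numbers were 82, 216, 40 and 32, with 3.92% of all features higher and 2.14% lower, and the median of the fading rises fell from 0.55 to 0.30. In the same order they were 41, 58, 13 and 12 without MeJA replicate 1, 125, 317, 68 and 64 without MeJA replicate 3, and 3, 85, 6 and 6 without mock replicate 1.

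Without mock 10 min replicate 2 or 3, the closely agreeing pair, edgeR's test called 0 genes of these classes and 4 or 1 genes in all. At an unadjusted p under 0.05, 142 and 140 fading rises were then still higher and 79 and 81 fading falls lower. The medians changed less: over all libraries left out in turn, that of the fading rises ran from 0.30 to 0.66 and that of the fading falls from -0.54 to -0.34. Among the named genes, Bra001626 had 2597, 1348 and 2558 counts with MeJA and 5181, 5844 and 5073 with mock at 10 min, and its log2 response there was -1.23 (edgeR adjusted p = 0.0268). Also called were Bra006567 at -0.78 (edgeR adjusted p = 0.026), Bra001761 at 1.4 and Bra035544 at 1.6 (edgeR adjusted p = 0.048 for both). Of the named fading rises, Bra016002 was not tested at 10 min. Bra004057 was not called, at 0.525 (edgeR adjusted p = 0.524) and -0.13 without MeJA replicate 2. No named growing gene or persisting fall was called there. The calls given here were among those lost without mock replicate 2 or 3, and differences from the responses at 24 h were not tested.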

How the data were processed

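The deposited file holds raw read counts per gene for 18 libraries, which the authors did not normalise; all value columns were mapped to samples by title. FastQC, TopHat2, HTSeq and edgeR were used per the submitters' processing notes, with no role stated. Genome build, annotation, strand setting and how reads of near-identical copies were counted: not given in the sources used here, so genes with such copies or overlaps are uncertain.

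Counts of the 12 libraries of 24 h and 72 h were filtered with filterByExpr, scaled by TMM and fitted with 4 group means in edgeR 4.0.16 (R 4.3.3) by quasi-likelihood across all genes, with Benjamini-Hochberg adjustment and calls under 0.05. The SE of a log2 difference is its size divided by the square root of F and is approximate. CPM are scaled by library total and TMM factor, except those of the floor of 3 counts, which use the library total alone. The 10 min libraries were fitted apart. The steps were tested on simulated data. The intervals of the change come from this fit and include the spread between replicates. The floor of 3 counts covers counting error only, since no molecular identifiers are stated.

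Classes, lists and tests were chosen with earlier results of these data known. For each class, the named genes are the pair with the largest change (persisting: the largest smaller response) among genes with a mean of at least 1 CPM, at least 10 counts in each group and no overlap between MeJA and mock at the defining time; for genes silent in mock, the pair highest in MeJA 24 h. Of 42186 identifiers, 1 matched the RefSeq table (51589 genes, assembly CAAS_Brap_v3.01), so 10 gene lists with 90 members, markers of leaf, root and flower among them, could not be filled and the labelled tissue was not checked. Alternatives were size factors and tests of DESeq2 1.42.0, limma-voom (limma 3.58.1) with sample weights, other filters, samples, thresholds and blocks. The replicate numbers were not taken as pairs of libraries.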

Additional observations from a re-analysis of the deposited data

Results flagged for a closer look

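The response to MeJA differed between 24 h and 72 h by the test of the difference itself for 476 genes. Among the named genes, the log2 response at 72 h minus that at 24 h was -5.45 for Bra004057 and -5.21 for Bra016002, whose rises faded. It was 2.88 for Bra001626 and 2.67 for Bra006567, whose falls faded, in calls that single libraries decide. It was 2.43 for Bra031136 and 2.13 for Bra002214, whose rises were called at 72 h but not at 24 h. It was -2.28 for Bra013227 and -1.93 for Bra004493, whose responses crossed from above mock to below it. Groups of 3 libraries were not tested for an outlying library.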

How the results depend on the processing

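No single-gene result changed direction in 412 recomputations, of which 395 kept their side of the threshold and 17 lost it, all of them for Bra001626, Bra006567 and Bra013227. DESeq2 called 923 changes (344 more positive, 579 more negative; 469 shared with the 476), with 551 fading rises, 284 fading falls, 60 growing rises and 29 growing falls. Limma-voom with sample weights called 1803 (854 and 949; 476 shared), with 883, 755, 133 and 78, and 1055 persisting rises, 700 persisting falls and 4264 responses at 72 h. Library totals gave 301 more positive changes, 264 fading falls, 50 growing rises and 5 growing falls. A log2 difference of at least 1 left 312 changes (86 more positive), 2422 responses at 24 h and 790 at 72 h, 62 fading falls, 11 growing rises, 1 growing fall, and 99 and 13 persisting rises and falls. All 18 libraries in the fit gave 400 persisting falls, and an interval within 1.5-fold gave 320 persisting rises and 126 falls. A standard error from the fitted means, added after the data were seen, gave 678 and 250. Genes silent in mock numbered 169 with no filter, with 93 lower at 72 h, and 32 at a mean of 1 CPM, with 31 lower. The cause of these differences was not tested.

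Same-numbered MeJA and mock libraries correlated by -0.215 to 0.286 in their deviations from group means, and differently numbered ones by -0.24 to 0.24. With 3 libraries a group, these values cannot settle whether the numbers pair the libraries. The numbers were not taken as pairs. With a replicate block within each time, 407 changes and 8 growing falls were called, and with a common replicate block 477 changes.

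Leaving out 1 library at a time gave 207 to 1055 changes, 40 to 536 more positive and 167 to 625 more negative, 4211 to 7130 responses at 24 h and 861 to 3100 at 72 h. It gave 164 to 610 fading rises, 28 to 479 fading falls, 15 to 88 growing rises, 2 to 28 growing falls, 308 to 786 persisting rises, 57 to 374 persisting falls, and 72 to 131 genes silent in mock, 56 to 91 of them lower at 72 h. At 10 min, where leaving out libraries other than MeJA replicate 2 was added after the data were seen, 0 to 125 fading rises, 0 to 68 fading falls, 0 to 317 persisting rises and 0 to 64 persisting falls were called. With 3 libraries a group, changes of low-count genes are the least certain.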

Other observations

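Chosen by 72 h instead, most responses were already present at 24 h. Of the 1589 genes higher with MeJA at 72 h, 1197 (75.3%) were called higher at 24 h, where 13.6% of all features were, with a median log2 response of 0.86 at 72 h and 0.85 at 24 h. Of the 597 lower at 72 h, 392 (65.7%) were called lower at 24 h, where 12.5% were, with medians of -0.67 and -0.60. The share for rises ran from 63.8% among the 398 smallest at 72 h to 84.9% among the 397 largest. Among the latter the median was 1.84 at 72 h and 2.32 at 24 h, although values at 72 h are inflated by the choice.

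Responses called at 72 h alone, with no called change, numbered 361 rises and 191 falls. Their median log2 response at 24 h was 0.25 and -0.26, in the direction they took at 72 h, and 9 of these falls were ENSRNA features.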
